A study of Mus musculus with 6 samples.

Results

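The replication-dependent histone genes were examined in leukemia stem cells (LSCs) by ATAC-seq, an assay in which the Tn5 transposase inserts sequencing adapters into open chromatin. Genes were taken as histone genes if they are protein-coding and have a GENCODE M21 name beginning with Hist1h, Hist2h, Hist3h or Hist4h, and the promoter as the 1 kb up- and downstream of each start. This gave 67 of 21938 protein-coding genes. In each of the 6 peak lists, the peak of highest fold enrichment that overlapped the promoter stood for the gene. A total of 65 of the 67 promoters had such a peak in all 6 lists, compared with 11704 of all 21938 promoters. The linker histone genes Hist1h1d and Hist1h1t had none in any list.

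The samples were 3 Control and 3 MMF-treated cultures of murine L-GMP cells, the leukemic granulocyte-macrophage progenitors that serve as LSCs in the MLL-AF9 model of acute myeloid leukemia. All 6 samples carry the MLL-AF9 fusion, are labelled wild type in genotype, and were grown in medium with IL-3. The treated samples received MMF (mycophenolate mofetil), an inhibitor of the IMPDH enzymes of guanine nucleotide synthesis, for 24 h per the labels. Figure legends of the study give a shorter time and a lower dose for the ATAC-seq than its methods. The length and dose of treatment are thus uncertain. The comparison asks how chromatin accessibility differed between the treated and the untreated cells. The labels give no separate animals or cultures for the replicates, so that p-values measure the spread between these samples, which may be technical. ATAC-seq was performed on bulk cells, and a change in the cells that make up a sample cannot be told apart from a change within each cell.

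Replication-dependent histone genes encode the H1, H2A, H2B, H3 and H4 proteins that package newly made DNA, and cells transcribe them mainly in S phase. They lie in clusters, often as divergent H2A and H2B pairs that share a promoter region. Their transcripts end in a conserved stem-loop, which is bound by SLBP, in place of a poly(A) tail. NPAT, a target of cyclin E and CDK2, activates the genes at the histone locus body, a nuclear structure formed on the clusters.

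The 67 genes lay in 7 clusters, defined by gaps of at most 100 kb between neighboring starts. On chromosome 13 of GRCm38 the 54 Hist1 genes fell into 4 of them. Cluster A held 18 genes from 21715143 to 21834771, cluster B held 5 genes from 22034568 to 22044214, cluster C held 29 genes from 23530050 to 23764666, and cluster D held 2 genes from 23933156 to 23935462. The Hist2 cluster held 10 genes on chromosome 3 from 96218865 to 96270752, the Hist3 cluster held 2 genes on chromosome 11 from 58947920 to 58955685, and Hist4h4 stood alone on chromosome 6. A divergent partner with a start at most 1000 bp away was found for 26 genes. The 65 promoters with peaks drew on only 42 merged peak regions, and 48 of them shared a region with another histone gene. Genes said to share a peak have 1 and the same value and are not independent measurements.

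The elements that set the histone classes apart can be read directly from the promoters. The sequences are the 140 bases before the RefSeq start (GRCm38.p6) of 7 genes on which the results turn, 5′ to 3′ on the strand of the gene. They are the H2A gene of highest mean level, a called H2A, H3 and H1 gene, the H4 gene whose level changed least, and a pair of called H4 genes. Capitals mark matches to CCAAT (the NF-Y site), TATAAA (the TATA box), ATTTGCAT (the octamer bound by OCT1) and AAACACA (the H1 box) on either strand. Words were marked wherever they lay, so that a marked TATAAA need not be a TATA box. It began 32 bases before the start in Hist1h2ac, 16 in Hist1h4k and 137 in Hist1h4i.
Hist1h2ac (chr13:23683960-23684099, minus strand): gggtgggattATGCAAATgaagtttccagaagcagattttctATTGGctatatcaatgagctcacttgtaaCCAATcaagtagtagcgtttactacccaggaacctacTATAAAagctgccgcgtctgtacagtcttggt
Hist1h2ai (chr13:21716272-21716411, plus strand): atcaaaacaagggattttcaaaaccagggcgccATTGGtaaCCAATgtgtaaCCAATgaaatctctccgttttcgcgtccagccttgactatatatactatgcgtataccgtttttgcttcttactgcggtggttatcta
Hist1h3i (chr13:21783398-21783537, minus strand): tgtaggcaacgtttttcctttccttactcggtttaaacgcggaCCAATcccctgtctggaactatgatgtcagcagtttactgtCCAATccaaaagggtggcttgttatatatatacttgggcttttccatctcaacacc
Hist1h1c (chr13:23738667-23738806, plus strand): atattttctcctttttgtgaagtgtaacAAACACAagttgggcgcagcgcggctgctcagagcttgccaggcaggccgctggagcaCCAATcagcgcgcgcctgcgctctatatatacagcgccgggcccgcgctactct
Hist1h4c (chr13:23698459-23698598, minus strand): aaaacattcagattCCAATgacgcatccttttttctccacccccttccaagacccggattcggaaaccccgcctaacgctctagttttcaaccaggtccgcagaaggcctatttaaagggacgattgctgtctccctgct
Hist1h4k (chr13:21750554-21750693, minus strand): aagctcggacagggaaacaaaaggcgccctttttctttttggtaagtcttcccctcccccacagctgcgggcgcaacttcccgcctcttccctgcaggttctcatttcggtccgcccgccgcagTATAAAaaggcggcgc
Hist1h4i (chr13:22041363-22041502, minus strand): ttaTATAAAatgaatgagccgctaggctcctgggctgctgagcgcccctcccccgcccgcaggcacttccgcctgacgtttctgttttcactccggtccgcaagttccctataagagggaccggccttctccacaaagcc

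RefSeq promoter sequences, from 250 bases before to 50 after a start, were at hand for 62 of the 67 genes as 63 promoters, with 21263 promoters of protein-coding genes in all. CCAAT, searched on both strands, was present in 85.7% of histone promoters and in 38.2% of all promoters. Every H1, H2A, H2B and H3 promoter held it (6, 18, 17 and 10 promoters), against 3 of 12 H4 promoters (25.0%). In the 140 bases before the start, 50 promoters held CCAAT, and 37 had at least 2 copies. The nearest match in these 50 began a median of 65 bases before the start. TATAAA was present, at any position and on either strand, in 55.6% of histone promoters against 12.6% of all. Within the 140 bases before the start it was found in 22 of the 63 histone promoters. The octamer ATTTGCAT was found in 22.2% against 1.66%, and within the histone genes in H2A (38.9%) and H2B (41.2%) promoters alone. AAACACA occurred in 5 of 6 H1 promoters (83.3%) against 6.15% of all promoters. None of these words contains another. A match is a description of the sequence and not evidence of a bound factor.

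**Figure D1:**
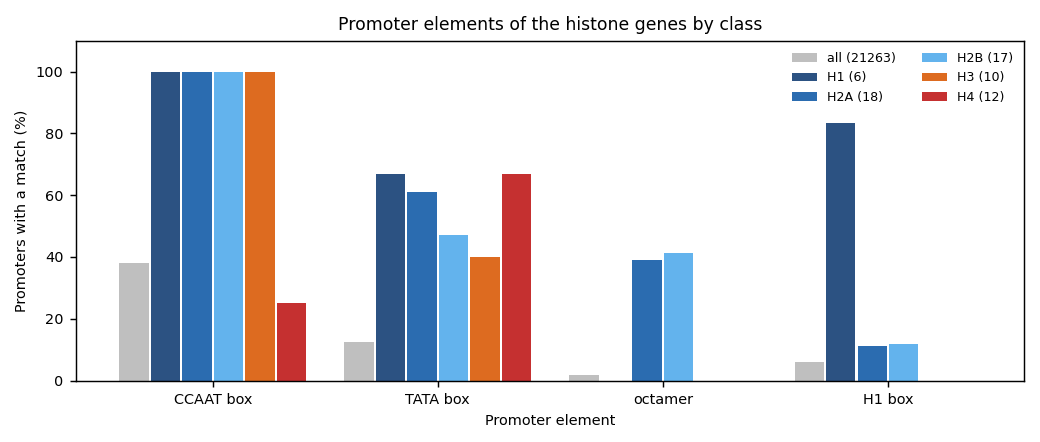
Share of promoters (%) with a match to each of 4 promoter elements, for all protein-coding promoters and for the 5 histone classes, with numbers of promoters in the legend. CCAAT reaches 100% in 4 classes and 25.0% in H4. A match counts on either strand and at any position from 250 bases before to 50 after a start.

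The 3′ stem-loop was searched as 6 bases, a loop of 4 and the 6 bases that pair with the first, within 120 bases after the coding end. It was present for 62 of 67 histone genes (92.5%), compared with 5.40% of all protein-coding genes. The commonest forms are shown with the loop in lower case.
H1, H2A, H2B and H3 genes: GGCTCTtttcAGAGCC
H1, H2A, H2B and H3 genes: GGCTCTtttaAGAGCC
H4 genes: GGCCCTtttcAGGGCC
The first was found in 38 genes, the second in 9 and the third in 8. No sequence was shared between the 13 H4 genes and the 49 other genes with a stem-loop. Hist2h2be, Hist1h2an, Hist1h2bp, Hist1h2bq and Hist1h2br had no match after their annotated coding end.

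Histone promoters also differed from the average promoter in base composition, with a median observed-to-expected CpG ratio of 0.916 against 0.611 and a median GC content of 53.7% against 57.7%. Copies of one another are common among them. In 60 of the 67 promoters at least 5% of the 50-base words occur again in the genome, with a median of 19.3%. The words of Hist1h2bq, Hist1h2ao, Hist1h2ap and Hist1h2br occur again in full (100%), so that reads from these promoters cannot be placed with certainty and their values are uncertain.

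Accessibility at the summit was high. The level used here is the number of reads over the peak summit divided by the genome-wide background of the sample, the reads expected over the same 150 bp if all reads were spread evenly. Both numbers were recovered from the deposited fold enrichment and p-value of each peak. In the Control samples the median level of the 65 promoters was 151, 156 and 164, against 76.8, 79.5 and 77.4 for all promoters. The median histone promoter lay at percentile 92.4 of all promoters by level. With MMF the medians were 130, 149 and 146, against 70.4, 76.5 and 72.4. Every treated median was thus below every Control median for the histone promoters, and the same held for all promoters.

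The highest mean levels over the 6 samples were found at divergent pairs. Hist1h2ac and Hist1h2bc, which share a peak, led the H2A and H2B classes with levels of 228, 202 and 232 in Control and 197, 180 and 173 in MMF-treated cells. Hist1h4m was the highest H4 gene through a peak that it shares with the Hist1h2ao and Hist1h2bq pair, with a median summit position of −1453 bp from its own start (upstream). Hist1h3d was the highest H3 gene with 195 ± 24.8 (SD, n = 3) in Control, through the peak of Hist1h2bf and Hist1h2ad, and Hist1h1e was the highest H1 gene with 130 ± 6.86 (SD, n = 3), through a peak whose summit lies nearer to a start of Hist1h2be. The lowest level of all belonged to Hist3h2ba with 11.9 ± 2.33 (SD, n = 3). The pair Hist1h2aa and Hist1h2ba, known as testis-type genes, was lowest among H2A genes at 66.6 ± 11.0 (SD, n = 3), and Hist4h4 was lowest among H4 genes at 85.2 ± 1.30 (SD, n = 3).

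With MMF, the level at the summit was lower for 58 of the 65 promoters. The median log2 difference was −0.23, a factor of 1.18, and single promoters ranged from −0.69 to 0.32. Over all 11704 promoters 68.3% were lower, with a median of −0.10. In 30 histone promoters (46.2%) all MMF samples were below all Control samples, compared with 17.8% of all promoters, and in 0 were all of them above, compared with 6.11%. limma, fitted over all 11704 promoters with Benjamini-Hochberg adjustment at 0.05, called 15 histone promoters lower (23.1%) and 0 higher. It called 2.53% of all promoters lower and 1.93% higher. At an unadjusted p under 0.05 there were 31 histone promoters (47.7%), compared with 20.2% of all. The 15 called genes belong to 9 peak regions.

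**Figure D2:**
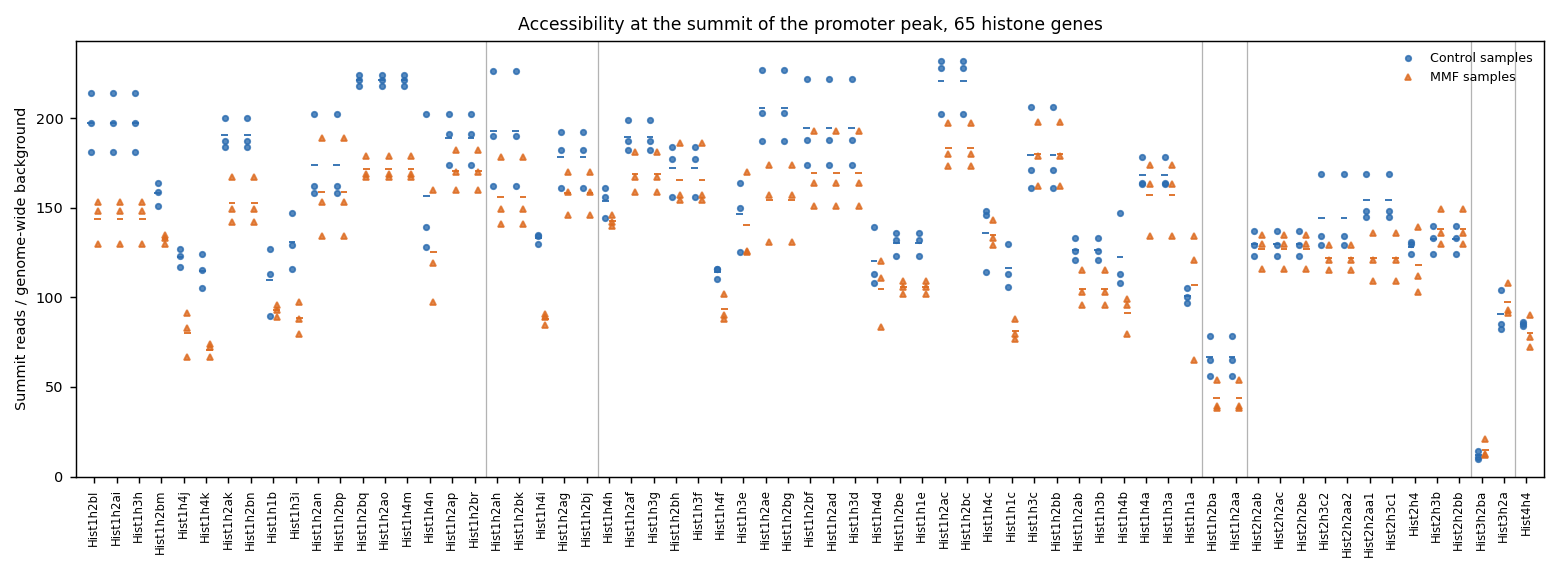
Level at the summit (reads over the summit divided by the genome-wide background) for the 65 histone promoters in each Control (circles) and MMF (triangles) sample, with short bars for means. Vertical lines separate the clusters Hist1 A, B, C and D, Hist2, Hist3 and Hist4 from left to right, and the MMF samples sit below the Control samples at Hist1h4k, Hist1h4j and Hist1h4i, and the groups overlap at Hist1h4c.

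The largest differences were at Hist1h4k and Hist1h4j, H4 genes of the Hist1 locus. The H4 gene Hist1h4i and the testis-type pair Hist1h2aa and Hist1h2ba came next, each at −0.60. Hist1h4k had levels of 115, 124 and 105 in Control and 73.7, 66.6 and 72.4 in MMF-treated cells. The groups did not overlap, and the log2 difference was −0.69 ± 0.14 (SE; adjusted p = 0.00111, limma). Hist1h4j of the same cluster had 123, 117 and 127 in Control and 91.3, 66.6 and 82.8 with MMF. Its log2 difference was −0.62 ± 0.14 (SE; adjusted p = 0.00343, limma). Hist1h4i of cluster B had 134, 130 and 135 in Control and 89.1, 90.7 and 84.3 with MMF, a log2 difference of −0.60 ± 0.12 (SE; adjusted p = 0.00185, limma). The summit of Hist1h4j moved by up to 1060 bp between lists, that of Hist1h4k by 23 bp and that of Hist1h4i by 88 bp. The groups did not overlap at any of these 3 H4 genes, though the MMF samples of Hist1h4j spread widely (SD 12.6, n = 3).

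The other H4 genes ranged widely. Hist1h4m was called, through a shared peak, and Hist1h4b (log2 difference −0.42, adjusted p = 0.0629, limma) and Hist1h4f (−0.29, adjusted p = 0.185) had groups that did not overlap without passing the test. Hist1h4h differed by −0.10 and Hist4h4 by −0.09. Hist1h4n differed by −0.31 with overlapping groups, and its summit moved by up to 1457 bp between lists. Its levels of 202 in Control replicate 3 and 160 in MMF replicate 2 are those of the Hist1h2ap and Hist1h2br peak. Of the words of its promoter, 92.0% occur again in the genome, so that its values are uncertain. Hist1h4m, Hist1h4b, Hist1h4f, Hist1h4n, Hist1h4h, Hist4h4 and the 3 above have no CCAAT match. Promoters without one covered the range from −0.69 at Hist1h4k to −0.09 at Hist4h4. The values of Hist1h4m, and some of those of Hist1h4n, come from peaks of H2A and H2B pairs whose promoters hold CCAAT. Hist1h4c, whose promoter holds 2 matches, had 148, 146 and 114 in Control and 133, 129 and 143 with MMF. The groups overlapped, and the 95% interval of its log2 difference ran from −0.24 to 0.23. Over the class, 13 of 13 H4 genes were lower by some amount with a median log2 difference of −0.29, and 4 were called. Whether the H4 class differed from the other classes was not tested, since its members share peaks with other classes.

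Among H3 and H1 genes, Hist1h3i and Hist1h1c stood out. Hist1h3i, the H3 gene of lowest mean level over the 6 samples, had 129, 116 and 147 in Control and 88.0, 79.3 and 97.6 with MMF, a log2 difference of −0.56 ± 0.13 (SE; adjusted p = 0.00657, limma). Hist1h1c, which encodes a linker histone, had 106, 130 and 113 in Control and 88.0, 79.3 and 76.9 with MMF. Its log2 difference was −0.51 ± 0.13 (SE; adjusted p = 0.0191, limma). Neither gene showed any overlap between the groups, and Hist1h1c was the H1 gene of lowest mean level. The summit of Hist1h1c moved by up to 962 bp between lists. The other H1 genes with a peak were not called, and Hist1h1a had levels of 134, 65.2 and 121 with MMF, a wider spread than its 100, 96.9 and 105 in Control. Its best peak changed its place between lists by 1239 bp.

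Divergent pairs of H2A and H2B genes made up most of the remaining calls. The peak between Hist1h2ai and Hist1h2bl, which also reaches Hist1h3h, had 214, 197 and 181 in Control and 130, 153 and 148 with MMF. The log2 difference was −0.46 ± 0.10 (SE; adjusted p = 0.00614, limma). The peak of Hist1h2ae and Hist1h2bg had 203, 187 and 227 in Control and 131, 157 and 174 with MMF, a log2 difference of −0.42 ± 0.11 (SE; adjusted p = 0.0161, limma). The peak of Hist1h2ao, Hist1h2bq and Hist1h4m had 221, 224 and 218 in Control and 169, 167 and 179 with MMF, with a log2 difference of −0.36 ± 0.09 (SE; adjusted p = 0.0186, limma). This last peak lies in sequence that occurs again in the genome. The testis-type pair Hist1h2aa and Hist1h2ba had 78.2, 65.1 and 56.4 in Control and 39.6, 53.8 and 38.4 with MMF, a log2 difference of −0.60 ± 0.19 that passed narrowly (SE; adjusted p = 0.0498, limma). For each of these 4 peaks every treated sample was below every Control sample.

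By cluster, Hist1 A held 9 of the 15 calls, with a median log2 difference of −0.34 over its 18 genes. Cluster B had 1 call among 5 genes with a median of −0.30, cluster C had 3 among 27 with a median of −0.20, and cluster D had both of its genes called. No Hist2, Hist3 or Hist4 gene was called. In the Hist2 cluster, Hist2h2ab, Hist2h2ac and Hist2h2be shared a peak with 123, 137 and 129 in Control and 130, 116 and 135 with MMF. Hist2h3c2 and Hist2h2aa2 shared one with 134, 129 and 169 in Control and 115, 129 and 121 with MMF. The groups overlapped at both peaks, whose summits moved by up to 1134 bp and 1384 bp between lists. Hist2h2aa1 and Hist2h3c1 had 145, 169 and 148 in Control and 109, 136 and 121 with MMF, the only Hist2 peak without overlap between the groups (log2 difference −0.34 ± 0.12 SE; adjusted p = 0.0788, limma). Of the 50-base words of Hist2h3c2, Hist2h2aa2, Hist2h2aa1 and Hist2h3c1, 77.6%, 57.2%, 54.4% and 78.5% occur again in the genome. The placing of reads at these promoters is therefore uncertain too.

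At the other end of the cluster, Hist2h4 had 130, 124 and 131 in Control and 139, 112 and 103 with MMF. Hist2h3b and Hist2h2bb shared a peak with 133, 124 and 140 in Control and 130, 149 and 136 with MMF. Hist4h4 had 86.4, 85.3 and 83.8 in Control and 90.2, 77.9 and 72.4 with MMF. The Hist3 genes had log2 differences above 0 without a call: Hist3h2a, with 85.1, 104 and 82.2 in Control and 91.3, 108 and 93.1 with MMF, differed by 0.11 (95% interval −0.17 to 0.39). Hist3h2ba, with 11.0, 10.1 and 14.5 in Control and 20.9, 12.7 and 11.8 with MMF, differed by 0.32 (95% interval −0.25 to 0.89). Groups overlapped at each of these promoters.

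The number of calls at the summit rested on the choice of samples and scaling. Without Control replicate 1 there were 7 called histone promoters, without Control replicate 2 there were 9, without Control replicate 3 there were 6 and without MMF replicate 1 there were 8. When the median over all promoters was set equal between samples, which removes the shift of −0.10, 7 were called and 51 were lower. With quantile normalisation 2 were called.

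The reads in the wider surroundings of each promoter fell more evenly. MACS2 compares each summit with a local background, and the recovered background turned out to be a whole number of reads in the 10 kb around the summit times 0.015, so that these reads could be counted. This measure was added after the data had been seen. Divided by the genome-wide background, the median of the 65 promoters was 19.8, 19.0 and 21.2 in Control and 12.5, 12.8 and 13.3 in MMF-treated cells. The 3 treated samples were far below the Control samples, while the medians of all promoters, 4.22, 4.23 and 4.26 in Control and 3.99, 4.12 and 4.06 with MMF, lay close together. Histone promoters thus sat in surroundings rich in reads, at percentile 99.2 of all promoters for the median gene. The 10 kb include the peak of the promoter itself and any neighboring peaks within them, and the windows of neighboring genes overlap. The measure therefore does not separate a peak from its surroundings.

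**Figure D3:**
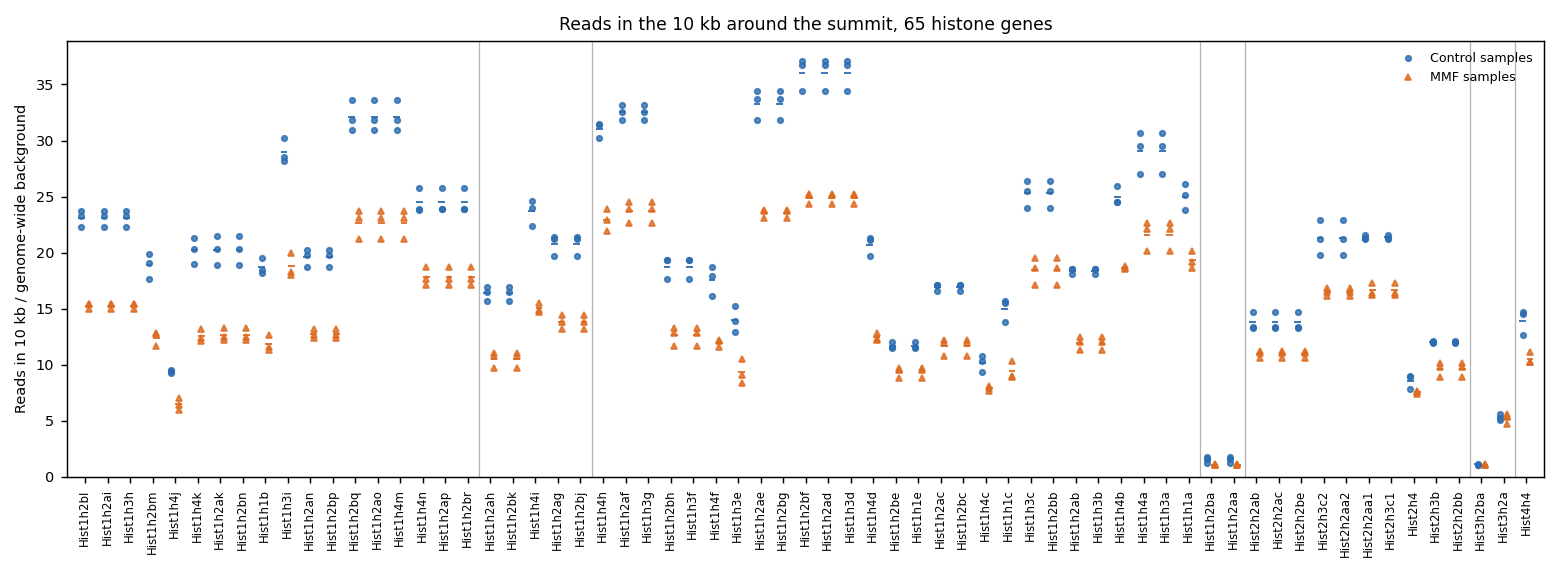
Reads in the 10 kb around the summit divided by the genome-wide background for the 65 histone promoters in each Control (circles) and MMF (triangles) sample, with short bars for means. Vertical lines separate the clusters Hist1 A, B, C and D, Hist2, Hist3 and Hist4 from left to right, and the MMF samples lie below the Control samples throughout the Hist1 clusters A to C, the Hist2 cluster and Hist4h4, and the groups overlap at Hist3h2a and Hist3h2ba.

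The local background exceeded the genome-wide one in all 6 lists for 11093 promoters, 62 of them histone promoters. All 62 were lower with MMF, with a median log2 difference of −0.50, a factor of 1.42, and a range from −0.73 to −0.03. The median of all 11093 was −0.08, and 67.7% of them were lower. limma with Benjamini-Hochberg adjustment called 61 of the 62 histone promoters lower (98.4%), compared with 18.3% of all promoters called lower and 6.55% called higher. In 61 the groups did not overlap with MMF lower, compared with 29.6% of all. Of the histone promoters, 22 had windows that did not overlap each other, and 21 of these were called. Under quantile normalisation 39 of the 62 were called, with a median of −0.19. Hist1h2aa, Hist1h2ba and Hist3h2ba were left out because their background was the genome-wide one in some lists.

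The largest difference was at Hist1h4d, with 958, 984 and 872 reads in 10 kb in Control and 747, 576 and 576 with MMF. As a multiple of the background this was 19.7, 21.3 and 21.1 in Control and 12.3, 12.2 and 12.8 with MMF, a log2 difference of −0.73 ± 0.05 (SE; adjusted p = 4.91e-11, limma). At its summit Hist1h4d differed by only −0.20 ± 0.13 (SE; adjusted p = 0.408, limma). Hist1h4k had 20.3, 19.0 and 21.3 in Control and 12.4, 12.1 and 13.2 with MMF, a log2 difference of −0.68 ± 0.05 that matched the −0.69 at its summit. Hist1h4c, which did not differ at the summit beyond its spread, had 10.8, 10.3 and 9.38 in Control and 7.94, 7.61 and 8.09 with MMF (log2 difference −0.36 ± 0.06 SE; adjusted p = 0.000135, limma). The count in the 10 kb, which includes neighboring peaks, was thus lower also at these promoters, whose own summit level did not differ beyond its spread in Hist1h4c and Hist1h4d.

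Outside the Hist1 locus the differences were smaller. The Hist2 genes had log2 differences between −0.37 and −0.19 with a median of −0.33, and all 10 were called, against a median of −0.60 in Hist1 A, −0.65 in Hist1 B and −0.50 in Hist1 C. Hist4h4 had 12.6, 14.7 and 14.5 in Control and 10.2, 10.2 and 11.1 with MMF, a log2 difference of −0.41 ± 0.06 (SE; adjusted p = 1.79e-05, limma). Hist3h2a had 5.21, 5.62 and 5.05 in Control and 4.69, 5.55 and 5.30 with MMF, and its log2 difference of −0.03 ± 0.08 was the only one not called (SE; adjusted p = 0.784, limma). Its groups overlapped. The differences between the loci were not tested.

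**Figure D4:**
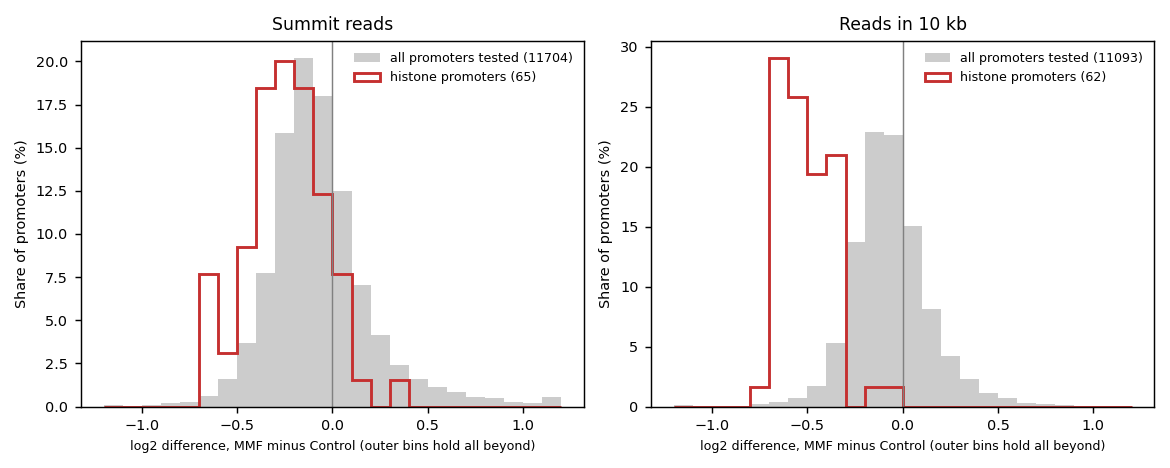
Distribution of log2 differences (MMF minus Control) at the summit and in the 10 kb around it, as shares (%) of all promoters tested (gray) and of histone promoters (red outline). The histone promoters lie at a median of −0.23 against −0.10 at the summit and of −0.50 against −0.08 in the 10 kb.

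Peak regions farther than 10 kb from the histone genes had smaller differences, without a steady trend with distance. Among peak regions found in all 6 lists, the 40 histone promoter regions with a measurable 10-kb background had a median log2 difference of −0.54, and 40 of 40 were lower. The 30 other regions within 10 kb of a histone start, whose windows overlap those of the genes, had −0.35 with 28 lower. From 10 to 50 kb the median over 38 regions was −0.10, from 50 to 100 kb it was −0.21 over 31 regions, from 100 to 200 kb −0.17 over 39, and from 200 to 500 kb −0.12 over 90. All regions farther away, or on other chromosomes, had a median of 0.07. Peaks at histone promoters were also narrower with MMF, with a mean over samples of the median width of 763 bp against 825 bp in Control, while the same value over all promoters was 664 bp against 669 bp. The bins also differed in their Control reads in 10 kb over background, with a median of 19.9 at histone promoter regions and 10.5 within 10 kb. Farther out it was 5.13, 6.77, 4.05 and 3.07 in order of distance, and 2.71 for all regions farther away or on other chromosomes. Distance and reads thus varied together, and their parts were not tested. These bins are a description without a test.

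The fold enrichment as deposited went the other way, because it divides the summit by the local background. Its median over the 65 histone promoters was 7.05, 7.51 and 7.32 in Control and 8.36, 8.63 and 8.86 with MMF, and for all promoters it lay between 12.8 and 13.4. In log2 units 60 of 65 histone promoters were higher in fold enrichment, with a median of 0.28 against 0.01 for all. In 31 (47.7%) all treated samples were above all Control samples, compared with 9.40% of all promoters. limma called 0 of them, and called 0.461% of all promoters higher. At an unadjusted p under 0.05 there were 21 histone promoters (32.3%), compared with 11.8% of all. By percentile rank of fold enrichment within a list, the measure by which peaks are usually ordered, 32 histone promoters (49.2%) were above in all treated samples, compared with 7.90% of all. The MMF lists are longer, and with all lists reduced to equal length 42 of 64 were lower in rank, 22 with all treated samples below and 5 with all above. At equal length the shares over all promoters were not counted, so that these counts do not set the histone promoters apart. In whole lists limma called 0 histone promoters, and called 0.239% of all promoters higher. An unadjusted p under 0.05 was found for 17 histone promoters (26.2%), compared with 11.9% of all. Hist1h4d shows the contrast, with fold enrichments of 5.20, 5.01 and 6.18 in Control and 8.36, 6.22 and 8.51 with MMF while its reads in the 10 kb were lower and its summit level did not differ beyond its spread.

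**Figure D5:**
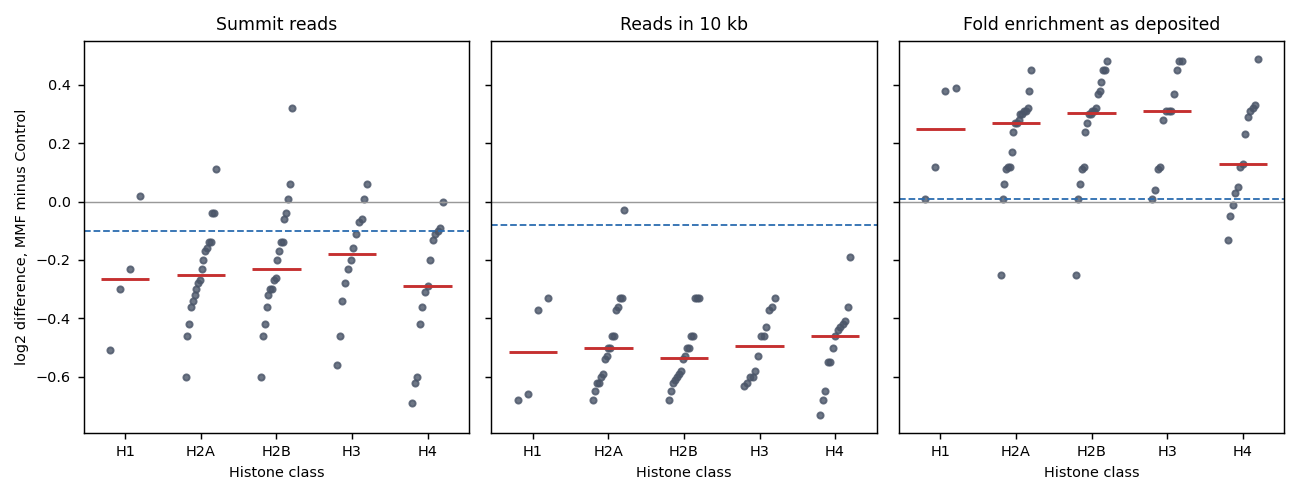
log2 difference (MMF minus Control) of each histone promoter by class for 3 measures: reads at the summit, reads in the 10 kb around it, and the deposited fold enrichment. Red bars are class medians, dashed blue lines the medians of all promoters and gray lines 0, and class medians lie between −0.29 and −0.18 at the summit, between −0.54 and −0.46 in the 10 kb and between 0.13 and 0.31 in fold enrichment.

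All 5 classes shared this pattern. At the summit the median log2 difference was −0.27 for H1, −0.25 for H2A, −0.23 for H2B, −0.18 for H3 and −0.29 for H4. In the 10 kb it was −0.52, −0.50, −0.54, −0.50 and −0.46 in the same order. Divergent pairs had a median of −0.27 at the summit and −0.56 in the 10 kb, and genes without such a partner had −0.23 and −0.46.

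Both genes without a peak are H1 genes. Hist1h1t is known as the testis-specific linker histone. For Hist1h1d the RefSeq start, at 23555032 on chromosome 13, lies 1770 bp from that of GENCODE M21, and a peak was present there in all 6 lists. Its levels were 133, 101 and 116 in Control and 99.0, 94.9 and 81.3 with MMF, without overlap between the groups. In the 10 kb it had 17.5, 16.3 and 18.1 in Control and 11.4, 11.9 and 11.5 with MMF. GENCODE M21 gives Hist1h2be 2 starts, and Hist1h1e shares its best peak. The median summit position was −155 bp from a start of Hist1h2be (upstream) and 1278 bp from that of Hist1h1e (downstream), outside the promoter window, so that the values of Hist1h1e may not describe its own start.

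Genes that make, process or carry histones were examined as lists chosen from textbook knowledge. Of 20 genes of histone RNA processing and transcription, 16 were lower at the summit (68.3% of all promoters) with a median log2 difference of −0.11. The 1 gene called lower (2.53% of all promoters) was Nfyc, which encodes a subunit of the CCAAT-binding factor NF-Y. Nfyc had 177, 72.3 and 150 in Control and 60.5, 63.7 and 63.6 with MMF (log2 difference −0.99 ± 0.18 SE; adjusted p = 0.000395, limma). Its best peak lay up to 9973 bp apart between lists, so that this difference compares different peaks. The highest value of the list was that of Cdk2 (0.10). In the 10 kb, 6 of the 20 were called lower and 1 higher, beside 18.3% and 6.55% of all promoters. SLBP's gene Slbp (−0.26, adjusted p = 0.00223), Nfya (−0.29, adjusted p = 0.000158) and Hinfp (−0.20, adjusted p = 0.0276), an activator of H4 genes, were among those called lower in the 10 kb by limma. These 3 were picked after their values had been seen.

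Of the list of replication-independent and other histone genes, 10 of 11 were tested. At the summit 6 were lower (68.3% of all promoters) and 1 was called lower (2.53% of all). H2afz, which encodes the variant H2A.Z, was the 1 call, with levels of 155, 149 and 148 in Control and 108, 132 and 106 with MMF (log2 difference −0.39 ± 0.12 SE; adjusted p = 0.0403, limma). H1fx was highest with 0.51 ± 0.24 (SE; adjusted p = 0.223, limma). In the 10 kb 5 of 10 were called lower (18.3% of all) and 0 higher, with a median of −0.12. Of 11 histone chaperones, 10 were lower at the summit (68.3% of all) and 1 was called lower (2.53% of all). This was Supt16, a subunit of FACT, with 140, 111 and 137 in Control and 89.1, 101 and 96.1 with MMF (log2 difference −0.44 ± 0.13 SE; adjusted p = 0.0357, limma). In the 10 kb 4 of the 11 chaperones were called lower (18.3% of all) and 0 higher. Atrx was highest with 0.15. Of 15 DNA replication genes 14 were lower (68.3% of all), with a median of −0.20 and extremes at Gins1 (−0.33) and Rrm1 (0.04). None was called at the summit by limma, with 8 called lower in the 10 kb (18.3% of all). The median 10-kb difference of these lists, from −0.21 to −0.11, compares with −0.50 for the replication-dependent genes. Single genes of the lists came near the latter, with H2afz at −0.51, Nasp at −0.49, H2afx at −0.48 and Pcna at −0.47. These genes were picked after their values had been seen, and Cpsf2, at 0.19, was called higher by limma.

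Markers of other cells were examined beside these results. The T cell markers Cd3e, Cd3g and Cd4 had no promoter peak in any list. Of 9 markers of myeloid progenitors and MLL-AF9 leukemia 6 had a peak in all lists, and Mpo had none. Of these 6, Ctsg (log2 difference 0.52), Spi1 (0.48) and Kit (0.31) were above 0, and Meis1 (−0.40), Hoxa9 (−0.36) and Cebpa (−0.31) were below. None of the 6 was called by limma. The summed level of the 9 was between 447 and 493 in Control and between 448 and 513 with MMF. Of 4 mature myeloid markers 3 had a peak in all lists, and Ly6g had one in 4 lists. The summed level of these 4 was between 70.9 and 83.7 in Control and between 123 and 142 with MMF, with Itgam (log2 difference 0.83 ± 0.19 SE; adjusted p = 0.00469, limma) and S100a8 (1.32 ± 0.24 SE; adjusted p = 0.000388, limma) called higher and Cd14 at −0.01. The erythroid marker Klf1 had a peak in all lists, with a log2 difference of −0.12 (adjusted p = 0.615, limma), and Gata1 had none. Itgam and S100a8, but not Cd14, were higher in the samples in which the histone promoters were lower, and their part in the result was not tested.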

How the data were processed

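ATAC-seq was performed on 3 Control and 3 MMF-treated samples, grouped by their labels. Per the study's methods and the submitters' processing notes, the authors trimmed reads with Trim Galore, mapped them to mm10 with Bowtie2 and ran MACS2 on every sample separately. The deposited lists give each peak's fold enrichment, a ratio of summit to local background, and −log10 p and −log10 q. The MACS2 options are not given in the sources used here. No total read counts were at hand, and the genome-wide background, 0.620 to 0.909 reads per 150 bp, stands for depth.

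Peaks on chromosomes 1 to 19, X and Y were used, 58496 to 86556 per list. Summit reads and local background were solved from fold enrichment and p (whole reads for at least 99.9984% of the peaks of a list, within 0.001 of −log10 p, relative). Local backgrounds gave whole reads in 10 kb within 0.05 of a read for 100% of peaks, to 3 digits, in which they exceeded the genome-wide one and were under 30. log2 values were fitted with limma 3.58.1 (lmFit, eBayes with trend) in R 4.3.3, without a block. Python 3.11.15, pandas 2.3.3 and scipy 1.17.1 were used, and the steps were tested on simulated data. Named genes were the called members, the 10 largest differences, the highest and lowest level of each class, all Hist2, Hist3 and Hist4 genes, members without a peak, and the called, highest and lowest genes of each list. Members and lists were chosen with earlier results of these data known. Results for 1 list of cell type markers are not reported here.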

Additional observations from a re-analysis of the deposited data

How the results depend on the processing

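By summit reads, 15 of 65 histone promoters and 522 of 11704 promoters were called. Rank in the whole list and fold enrichment turned the direction. By percentile rank in the whole list 0 histone promoters and 31 promoters in all were called, 13 were lower, 0 were lower with groups apart and 32 higher with groups apart. By deposited fold enrichment 0 and 56 were called, 5 were lower, the median was 0.28, 0 were lower with groups apart and 31 higher. The rank score was above 0 at Hist1h1c (0.07), at Hist1h2bl, Hist1h2ai and Hist1h3h (0.07) and at Hist1h2bq, Hist1h2ao and Hist1h4m (0.08). The log2 fold enrichment was above 0 at Hist1h2bl, Hist1h2ai and Hist1h3h (0.11), Hist1h3i (0.04), Hist1h2bq, Hist1h2ao and Hist1h4m (0.12), Hist1h1c (0.12), Hist1h4i (0.03), and Hist1h2ae and Hist1h2bg (0.06). Ranks in lists of equal length gave 2 and 617 calls, 42 lower, 22 lower and 5 higher with groups apart. Ranks among promoters gave 1 and 100 calls, 40 lower, 19 lower and 2 higher with groups apart. For ranks at equal length and among promoters, lower values and groups apart were counted for histone promoters alone, without a share over all promoters.

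With medians set equal 7 were called, the median was −0.14 and 2 were higher with groups apart. One value per region gave 8 calls, 35 lower and 18 with groups apart, and the 5 members under 5% repeated words gave 0 calls, 4 lower, a median of −0.13 and 1 with groups apart; both settings have fewer members by construction. Without a trend 2 and 250 were called. Quantile normalisation, added after the data were seen, gave 2 and 252 calls, a median of −0.09, and 18 lower and 2 higher with groups apart. Leaving out single samples gave 6 to 15 called histone promoters, 256 to 413 calls in all, and 0 to 1 higher with groups apart. Beyond the construction of these settings, the cause was not tested.

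For the reads in 10 kb, medians set equal gave −0.44, quantile normalisation 39 and 1778 calls with a median of −0.19, and 1 value per region 37 calls, 38 lower and 37 with groups apart. Without single samples 60 to 61 were called.

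With a replicate block 13 histone promoters and 419 promoters in all were called by summit reads, and 61 and 2596 by reads in 10 kb. Deviations of same-numbered samples correlated at 0.01, 0.01 and 0.02, so that the samples share only a number. With 3 samples against 3, an exact permutation test of a single promoter cannot go below p = 0.1.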

Other observations

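Promoters in surroundings as rich in reads as those of the histone genes were also lower with MMF, though by less. Of the 235 promoters in the top 2% by reads in 10 kb, 48 were histone promoters, with a median log2 difference of −0.54 and 48 called lower by limma. The other 187 had a median of −0.19, with 174 lower, 119 called lower and 4 called higher. Among 10211 promoters whose summits stayed within 500 bp over the 6 lists, 47 were histone promoters, and these made up 30 of the 100 and 41 of the 500 promoters with the lowest 10-kb difference. Neighboring histone genes share windows, and these counts are descriptions without a test.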
